A study of Homo sapiens with 9 samples.

Results

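Cadherins, desmosomes and tight junctions were followed through 10 genes in Huh7 cells, a widely used line from a human hepatocellular carcinoma. The genes were JUP, CTNNB1, CDH1, CDH2, DSP, DSG2, PKP2, TJP1, CLDN1 and OCLN. They were represented by all 21 probe sets, of 54613 tested, for which the platform annotation gave exactly 1 symbol equal to one of these genes. A probe set is a group of short probes on the array that is summarised as 1 value. The 9 Affymetrix arrays comprised 3 of cells given PGG (penta-galloyl glucose, a plant polyphenol) at 0.1 mg/mL for 48 hours, 3 of cells given the same dose for 6 hours, and 3 of cells given PBS, the solvent, for 48 hours. The titles name 3 biological replicates per group. For PBS the titles give 48 hours, as used here, and the descriptions 0 hours. All cells were of 1 line grown in culture. PBS was given for 48 hours only in the arrays analysed here, so PGG 6 h and PBS differ in culture time as well as in treatment. PGG 48 h and PGG 6 h likewise differ in culture time as well as in length of exposure.

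Epithelial cells are held together by several kinds of junction. In adherens junctions, cadherins such as E-cadherin and N-cadherin bind their like on the next cell and are tied to actin through catenins. In desmosomes, desmogleins and desmocollins are tied to keratin filaments through plakoglobin, plakophilins and desmoplakin. Tight junctions, built from claudins and occludin on a scaffold of ZO proteins, seal the space between cells, and in liver they separate bile canaliculi from blood. Beta-catenin also acts in the nucleus as the effector of WNT signaling, and loss of E-cadherin with gain of N-cadherin is a classical sign of the epithelial-mesenchymal transition.

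The stretches before the starts of 5 of the genes are shown because 4 of these genes, DSP, DSG2, TJP1 and OCLN, moved the same way over the time course below by their highest probe sets, though not by all of them, and because all 4 hold the letters CACCTG or their reverse complement CAGGTG. This motif is an E-box that repressors of the SNAI and ZEB families are known to bind in the E-cadherin promoter. It was chosen after the values had been seen. The genes shown were picked by their values and their matches, so the motif they share is no test of a link to the time course. JUP, which also holds the motif, is not shown. The sequences are from RefSeq (GRCh38.p14), run 5′ to 3′ on the gene's strand, cover the 250 bases before the start of the gene, and have the motif in capitals. CLDN1, which moved in the opposite direction, is shown last and holds no such match in this window.
DSP, chr6:7541421-7541670, plus strand: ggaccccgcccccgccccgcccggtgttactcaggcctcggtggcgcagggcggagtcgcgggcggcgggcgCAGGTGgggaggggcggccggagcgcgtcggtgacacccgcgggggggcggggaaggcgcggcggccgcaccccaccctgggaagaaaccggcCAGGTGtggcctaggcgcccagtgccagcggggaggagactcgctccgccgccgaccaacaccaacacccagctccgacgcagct
DSG2, chr18:31497927-31498176, plus strand: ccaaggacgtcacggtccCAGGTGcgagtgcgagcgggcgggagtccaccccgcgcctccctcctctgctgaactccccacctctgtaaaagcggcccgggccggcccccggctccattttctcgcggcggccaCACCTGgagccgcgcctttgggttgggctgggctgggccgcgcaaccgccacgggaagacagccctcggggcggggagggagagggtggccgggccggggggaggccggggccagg
TJP1, chr15:29969050-29969299, minus strand: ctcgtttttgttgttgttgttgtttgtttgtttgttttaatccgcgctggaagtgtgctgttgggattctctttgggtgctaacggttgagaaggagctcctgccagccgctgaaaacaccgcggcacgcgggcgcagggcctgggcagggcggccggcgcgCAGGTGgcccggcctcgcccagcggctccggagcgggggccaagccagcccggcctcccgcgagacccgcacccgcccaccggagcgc
OCLN, chr5:69492297-69492546, plus strand: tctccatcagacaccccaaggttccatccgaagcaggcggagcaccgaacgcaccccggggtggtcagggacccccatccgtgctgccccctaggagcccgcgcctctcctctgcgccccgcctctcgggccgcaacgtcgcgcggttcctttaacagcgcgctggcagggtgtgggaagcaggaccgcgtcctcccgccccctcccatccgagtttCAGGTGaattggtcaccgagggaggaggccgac
CLDN1, chr3:190322447-190322696, minus strand: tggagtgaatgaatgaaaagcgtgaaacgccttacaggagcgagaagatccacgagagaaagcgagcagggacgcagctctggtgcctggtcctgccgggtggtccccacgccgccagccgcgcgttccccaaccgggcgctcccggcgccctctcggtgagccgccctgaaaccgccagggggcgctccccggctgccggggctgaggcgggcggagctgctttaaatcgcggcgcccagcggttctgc

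The first letter of the motif lay 178 and 85 bases before the start of DSP, 232 and 116 bases before that of DSG2, 88 bases before that of TJP1 and 33 bases before that of OCLN, the last 2 in the first of several windows. TJP1 has 4 windows, and only the 1 shown held a match. The RefSeq promoter table held 14 windows of 300 bases (250 before to 50 after a start) for 8 of the 10 genes and none for CDH1 and PKP2. CACCTG or CAGGTG was found in 6 of the 14 windows, of 5 of the 8 genes, against 20.6% of all 35116 windows. The fifth gene was JUP, in the second of its 2 windows, and JUP did not share the time course of the other 4. CTNNB1, CDH2 and CLDN1 had no match in their windows. CACGTG, the E-box of MYC and its own reverse complement, was in 0 of the 14 windows, against 7.26% of all. GGGCGG, the GC box, or its reverse complement CCGCCC, was in 10 of the 14 windows, against 45% of all. The shares over all are of windows, not of genes, and a gene with several windows has more chances of a match. Windows of 1 gene can overlap, as the pair of OCLN did, and a match is a description of the letters only.

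The control probes that report on RNA quality differed between the groups. For ACTB the signal of the 3′ control probes minus that of the 5′ ones, which grows as RNA is broken down or incompletely copied, was 2.14 to 4.03 on the log2 scale on the arrays of PGG 48 h, 1.13 to 1.23 on those of PGG 6 h and 0.96 to 1.57 on those of PBS. PGG 48 h replicate 2 had the highest value and PBS replicate 1 the lowest. The same difference for GAPDH was 1.83 on PGG 48 h replicate 2 and 0.13 to 0.39 on the other 8 arrays. PBS replicate 1 was the highest of its group in 13 of the 21 junction probe sets, against 31.8% of all probe sets. PGG 48 h replicate 2 was the lowest of its group in 5 and the highest in 9, against 29.4% and 39.1% of all. Such counts were also uneven on arrays within the ACTB range of PBS, as PGG 6 h replicate 3 was highest in 11, against 30.8% of all. Part of the junction values moved with these arrays, as given beside each gene, and the part of RNA quality in the results was not tested. The hepatocyte markers ALB, AFP, APOA1, APOB, TTR, SERPINA1, TF and FGB all averaged above the median of the probe sets. Their summed linear signal was 45456 to 47304 in PGG 48 h, 50070 to 50910 in PGG 6 h and 46569 to 47837 in PBS. This sum is set mostly by the brightest markers, and single markers went both ways at 48 h, where APOB fell by 1.99, FGB fell by 0.58 and AFP fell by 0.25, and TTR rose by 1.00, APOA1 by 0.68, TF by 0.54 and SERPINA1 by 0.22. The leukocyte marker PTPRC averaged 3.34 and the endothelial cadherin CDH5 3.30 on the log2 scale in PGG 48 h, against 3.30 and 3.28 in PBS. Of the other markers of these cells at 48 h, CD3E fell by 0.30, PECAM1 rose by 0.46 (limma adjusted p = 0.004) and VWF differed by -0.05 (limma adjusted p = 0.65). The summed linear signal of the 3 endothelial markers was 117 to 150 in PGG 48 h, 96 to 109 in PGG 6 h and 100 to 106 in PBS, and that of the 2 leukocyte markers was 50 to 53 in PGG 48 h, 55 to 57 in PGG 6 h and 59 to 63 in PBS.

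Of the 21 probe sets, 3 were higher and 8 lower in PGG 48 h than in PBS at an adjusted p under 0.05 in limma. Over all probe sets 18.8% were higher and 20.2% lower in that comparison. In PGG 6 h 6 were higher and 10 lower than in PBS, where 12.2% and 12.5% of all probe sets were called. Between PGG 48 h and PGG 6 h 6 were higher and 8 lower, where 18% and 18.4% of all were called. The median absolute log2 difference of the 21 was 0.36 for PGG 48 h against PBS, 0.56 for PGG 6 h against PBS and 0.48 between the PGG times, against 0.17, 0.12 and 0.16 over all probe sets. These shares and medians over all take in the probe sets below the median signal as well. With all 54613 probe sets tested, 21323 were called at 48 h and 13445 at 6 h against PBS. With only those above the median signal tested, 17507 and 12358 were called. By definition these are about as many as the probe sets below it, so a larger share of them was called than over all. Of the junction probe sets, 3 were then higher and 6 lower at 48 h, and 5 higher and 9 lower at 6 h. The shares over all are thus not matched to the junction probe sets in signal, and are lower than the shares among brighter probe sets. No excess of junction calls at 48 h over probe sets of like signal can be read from them. The 3 comparisons share arrays and are not independent of one another. The words rose and fell are used below of probe sets past this threshold, and a gene is described first by whichever of its probe sets had the highest mean signal. The plot of the 10 genes by array shows these probe sets. Levels of different probe sets are not comparable with each other.

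**Figure D1:**
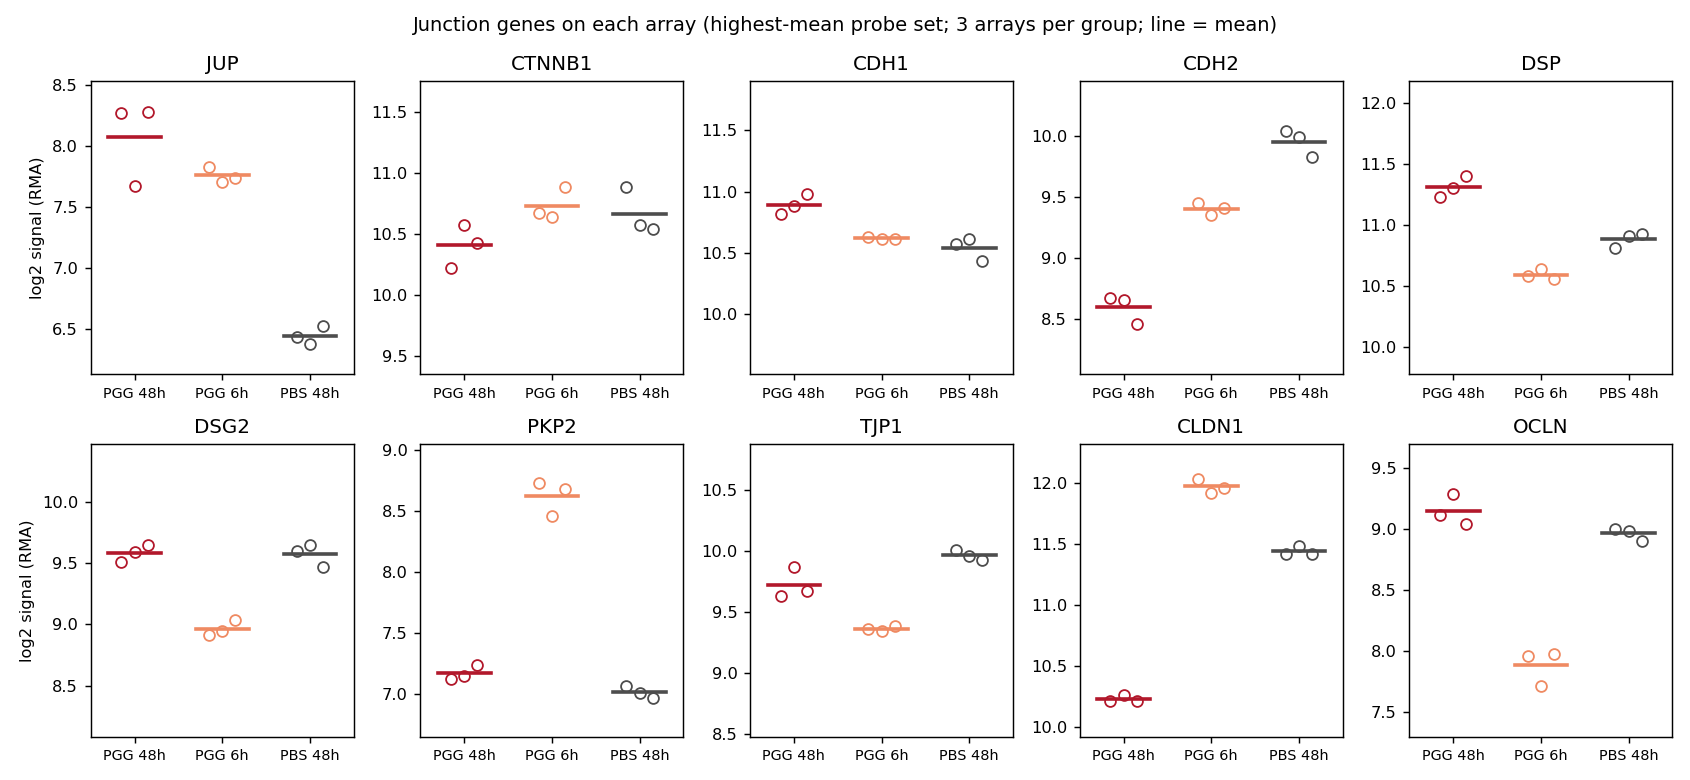
Log2 signal of the 10 junction genes on each of the 9 arrays, by the probe set with the highest mean. Circles are single arrays, lines are the means of 3, and all panels span the same number of log2 units. JUP lay above all PBS arrays in both PGG groups and CDH2 below them, whereas PKP2 and CLDN1 stood highest and DSP, DSG2, TJP1 and OCLN lowest at 6 h of PGG.

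JUP encodes plakoglobin, the armadillo protein that serves both desmosomes and adherens junctions, and it was higher at both times. Its single probe set read 8.27, 7.67 and 8.28 in PGG 48 h, 7.83, 7.70 and 7.74 in PGG 6 h, and 6.43, 6.38 and 6.52 in PBS. All PGG arrays lay above all PBS arrays. In RNA of whole cultures, a change in the share of cells that express a gene and a change in its RNA per cell cannot be told apart. It rose by 1.63 on the log2 scale at 48 h (standard error 0.14, limma adjusted p = 2.8e-06), a 3.1-fold level, and by 1.31 at 6 h (standard error 0.14, limma adjusted p = 4.7e-05). Between the PGG times the difference was 0.32 (limma adjusted p = 0.11), with the lowest array of PGG 48 h being replicate 2, the array with the highest ACTB difference. Without that array the difference between the PGG times was 0.52 (limma adjusted p = 2.4e-04), and with array weights 0.43 (limma adjusted p = 0.0068).

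CTNNB1 encodes beta-catenin, the other armadillo partner of the cadherins, and did not pass the test against PBS by its highest probe set. This probe set, 201533_at, read 10.22, 10.57 and 10.42 in PGG 48 h, 10.67, 10.64 and 10.88 in PGG 6 h, and 10.88, 10.57 and 10.54 in PBS. The PGG groups overlapped with PBS. The log2 difference from PBS was -0.26 at 48 h (standard error 0.12, limma adjusted p = 0.11) and 0.07 at 6 h (limma adjusted p = 0.76). The value at 48 h passed the threshold after quantile normalization, at -0.32 (limma adjusted p = 0.039), and without PGG 48 h replicate 2, at -0.34 (limma adjusted p = 0.047). The value at 48 h lay below that at 6 h by a log2 difference of -0.33 (limma adjusted p = 0.049), a call that was lost under 7 of the 9 single arrays left out.

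The other CTNNB1 probe sets did not show 1 direction. 223679_at rose by 0.52 at 6 h (limma adjusted p = 0.0011) and stood at 0.15 at 48 h (limma adjusted p = 0.21). 1554411_at, a dim probe set with a mean of 3.51, fell by 0.50 at 48 h (limma adjusted p = 0.031). In PBS it read 4.22 in replicate 1, 3.43 in replicate 2 and 3.66 in replicate 3. Within an array, the log2 ratio of JUP to CTNNB1 by their highest probe sets stood above its PBS mean by 2.27, 1.32 and 2.08 in PGG 48 h and by 1.38, 1.28 and 1.08 in PGG 6 h, against -0.23, 0.03 and 0.20 in PBS. The 2 genes thus changed unequally in both PGG groups, and the ratio was lowest at 48 h on replicate 2.

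CDH2, which encodes N-cadherin, fell at both times and by both of its probe sets. The probe set 203440_at read 8.67, 8.66 and 8.46 in PGG 48 h, 9.45, 9.35 and 9.41 in PGG 6 h, and 10.04, 9.99 and 9.83 in PBS. The 3 groups did not overlap. It fell by 1.36 at 48 h (standard error 0.08, limma adjusted p = 1.6e-07) and fell by 0.55 at 6 h (standard error 0.08, limma adjusted p = 4.7e-04), and it stood lower at 48 than at 6 h by a log2 difference of -0.81 (limma adjusted p = 1.2e-05). The other probe set, 203441_s_at, fell by 1.29 at 48 h (limma adjusted p = 3.2e-05) and fell by 0.53 at 6 h (limma adjusted p = 0.023). PBS replicate 1 was its highest array, at 8.88, with 8.37 and 8.20 in the other PBS arrays.

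CDH1, which encodes E-cadherin, rose slightly at 48 h by its brighter probe set. This probe set, 201131_s_at, read 10.82, 10.88 and 10.98 in PGG 48 h, 10.63, 10.61 and 10.61 in PGG 6 h, and 10.57, 10.61 and 10.43 in PBS. All arrays of PGG 48 h lay above all others. The rise at 48 h was 0.36 (standard error 0.07, limma adjusted p = 0.0017), and the difference at 6 h was 0.08 (limma adjusted p = 0.50). The dimmer probe set, 201130_s_at, read 5.82, 4.53 and 5.53 in PGG 48 h, 5.42, 5.59 and 5.61 in PGG 6 h, and 6.94, 5.68 and 5.69 in PBS. It was lowest on the array with the highest ACTB difference and highest on the array with the lowest. Its log2 differences were -0.81 at 48 h (standard error 0.36, limma adjusted p = 0.10) and -0.56 at 6 h (limma adjusted p = 0.33). With the mean of both probe sets CDH1 stood at -0.23 at 48 h (limma adjusted p = 0.36), so the direction for CDH1 rests on the brighter probe set.

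By the brighter probe sets, the log2 ratio of CDH1 to CDH2 within an array stood above its PBS mean by 1.57, 1.64 and 1.94 in PGG 48 h and by 0.60, 0.68 and 0.62 in PGG 6 h, against -0.05, 0.04 and 0.02 in PBS. The groups did not overlap, and the mean shift was 1.71 ± 0.20 (SD, n = 3) in PGG 48 h and 0.63 ± 0.04 (SD, n = 3) in PGG 6 h. Most of the shift was the fall of CDH2.

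Of the desmosome genes, DSP and DSG2 were lower at 6 h and higher again at 48 h, and PKP2 did the opposite. DSP, which encodes desmoplakin, the link from the desmosome to keratin filaments, read 11.23, 11.30 and 11.40 in PGG 48 h, 10.58, 10.64 and 10.56 in PGG 6 h, and 10.81, 10.91 and 10.93 in PBS. The 3 groups did not overlap. It rose by 0.43 at 48 h (standard error 0.07, limma adjusted p = 3.8e-04) and fell by 0.29 at 6 h (standard error 0.07, limma adjusted p = 0.0091), and the log2 difference between the PGG times was 0.72 (limma adjusted p = 7.3e-06).

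DSG2 encodes desmoglein 2, the desmosomal cadherin of simple epithelia. Its probe set 217901_at read 9.51, 9.59 and 9.65 in PGG 48 h, 8.91, 8.95 and 9.04 in PGG 6 h, and 9.60, 9.65 and 9.47 in PBS. The group at 6 h lay below the others, which overlapped. It fell by 0.61 at 6 h (standard error 0.07, limma adjusted p = 1.1e-04), and at 48 h the difference from PBS was 0.01 (limma adjusted p = 0.93). The dimmer probe set 1553105_s_at read 6.71, 5.74 and 6.41 in PGG 48 h, 6.17, 5.99 and 6.05 in PGG 6 h, and 7.06, 6.34 and 6.49 in PBS. It passed at neither time, with log2 differences of -0.34 at 48 h (limma adjusted p = 0.29) and -0.56 at 6 h (limma adjusted p = 0.12), and its lowest array was again PGG 48 h replicate 2.

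PKP2 encodes plakophilin 2, which links desmosomal cadherins to desmoplakin, and had the largest difference of the 10 genes at 6 h. Its probe set 207717_s_at read 7.12, 7.15 and 7.24 in PGG 48 h, 8.73, 8.46 and 8.68 in PGG 6 h, and 7.07, 7.01 and 6.97 in PBS. The group at 6 h stood apart by more than 1 log2 unit. It rose by 1.61 at 6 h (standard error 0.08, limma adjusted p = 2.5e-07), while the difference at 48 h was 0.15 (limma adjusted p = 0.17). The log2 difference between PGG 48 h and PGG 6 h was -1.45 (limma adjusted p = 1.1e-07). The dimmer probe set 214154_s_at also rose at 6 h, with a smaller size. The rise was 0.42 (limma adjusted p = 0.015), and its difference at 48 h was -0.11 (limma adjusted p = 0.50).

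**Figure D2:**
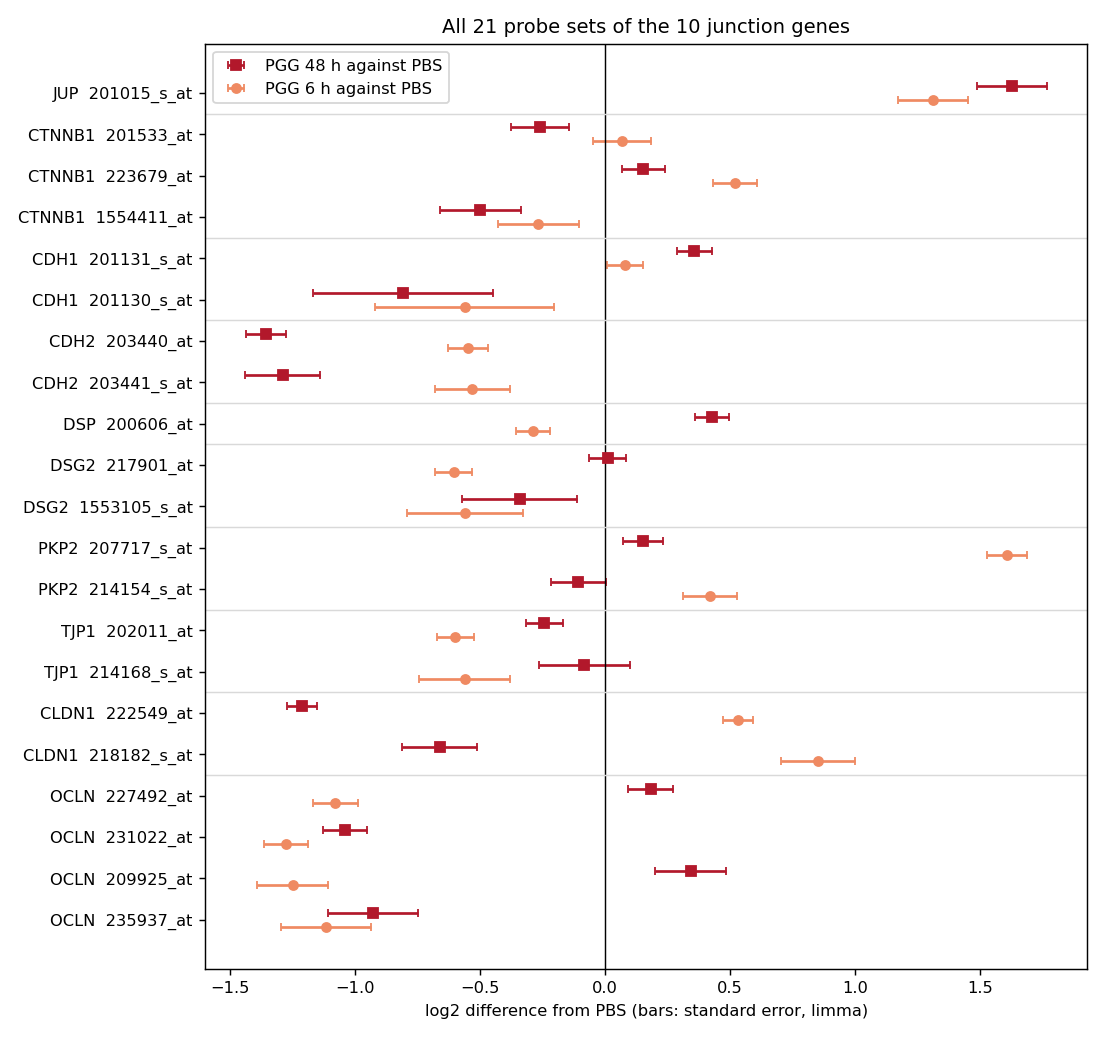
Log2 difference from PBS of each of the 21 probe sets, with squares for PGG 48 h and circles for PGG 6 h. Bars are standard errors from limma, with 3 arrays per group. Probe sets of CDH2 and CLDN1 kept the same sign within each time, whereas at 48 h the 4 probe sets of OCLN split, with 2 above 0 and 2 near -1.

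Of the tight junction genes, TJP1 and OCLN were lower at 6 h, and CLDN1 was higher at 6 h and lower at 48 h. TJP1 encodes the scaffold ZO-1. Its probe set 202011_at read 9.63, 9.87 and 9.67 in PGG 48 h, 9.36, 9.35 and 9.39 in PGG 6 h, and 10.01, 9.96 and 9.93 in PBS. The 3 groups did not overlap. It fell by 0.60 at 6 h (standard error 0.07, limma adjusted p = 1.2e-04) and fell by 0.24 at 48 h (standard error 0.07, limma adjusted p = 0.021). The call at 48 h was lost without PBS replicate 1, at -0.22 (limma adjusted p = 0.061), without PGG 48 h replicate 1, at -0.20 (limma adjusted p = 0.077), and without PGG 48 h replicate 3, also at -0.22 (limma adjusted p = 0.072). That call was also lost with only the 2 groups compared (limma adjusted p = 0.054) and with the methods' t-test (adjusted p = 0.1 from that test). With the mean of both probe sets it was lost as well, at -0.16 (limma adjusted p = 0.27). The other probe set, 214168_s_at, fell by 0.56 at 6 h (limma adjusted p = 0.046) and stood at -0.08 at 48 h (limma adjusted p = 0.77). It read 7.65 in PBS replicate 1, with 6.83 and 6.88 in the other PBS arrays.

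CLDN1 encodes claudin-1, a sealing claudin that is also an entry factor of hepatitis C virus in hepatocytes. Its probe set 222549_at read 10.21, 10.26 and 10.21 in PGG 48 h, 12.03, 11.92 and 11.96 in PGG 6 h, and 11.42, 11.48 and 11.42 in PBS. The 3 groups did not overlap and differed by many times their spread. It fell by 1.21 at 48 h (standard error 0.06, limma adjusted p = 4.2e-08) and rose by 0.53 at 6 h (standard error 0.06, limma adjusted p = 7.5e-05). The log2 difference between PGG 48 h and PGG 6 h was -1.74 (limma adjusted p = 5.7e-09), the largest in size among the 21 probe sets. The second probe set, 218182_s_at, moved the same way. It fell by 0.66 at 48 h (limma adjusted p = 0.0039) and rose by 0.85 at 6 h (limma adjusted p = 0.0014), with its highest PBS value, 10.11, in replicate 1.

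OCLN encodes occludin, a membrane protein of the tight junction strand, and all 4 of its probe sets fell at 6 h. The brightest, 227492_at, read 9.11, 9.28 and 9.04 in PGG 48 h, 7.96, 7.71 and 7.97 in PGG 6 h, and 9.0, 8.98 and 8.90 in PBS. It fell by 1.08 at 6 h (standard error 0.09, limma adjusted p = 7.9e-06), and at 48 h its difference from PBS was 0.18 (limma adjusted p = 0.14). The other 3 probe sets fell by 1.12 to 1.28 at 6 h, each at a limma adjusted p no higher than 8.6e-04.

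At 48 h the OCLN probe sets went apart. 209925_at read 6.61, 7.29 and 6.81 in PGG 48 h, 5.30, 5.38 and 5.25 in PGG 6 h, and 6.67, 6.48 and 6.53 in PBS, a log2 difference from PBS of 0.34 at 48 h (limma adjusted p = 0.084). 231022_at read 6.43, 6.70 and 6.52 in PGG 48 h, 6.22, 6.28 and 6.44 in PGG 6 h, and 7.51, 7.66 and 7.60 in PBS, and it fell by 1.04 at 48 h (limma adjusted p = 2.5e-06). Like it, 235937_at fell by 0.93 at 48 h (limma adjusted p = 0.0015). The first pair thus stood near PBS at 48 h, and the second pair stayed below all PBS arrays. With the mean of the 4 probe sets OCLN was lower at 48 h, at -0.36 (limma adjusted p = 0.0032), so no single direction at 48 h is given for the gene. The positions of the probes in the transcript are not given in the sources used here. A pseudogene, OCLNP1, lies on the same chromosome, and whether the probes tell it from OCLN was not tested.

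**Figure D3:**
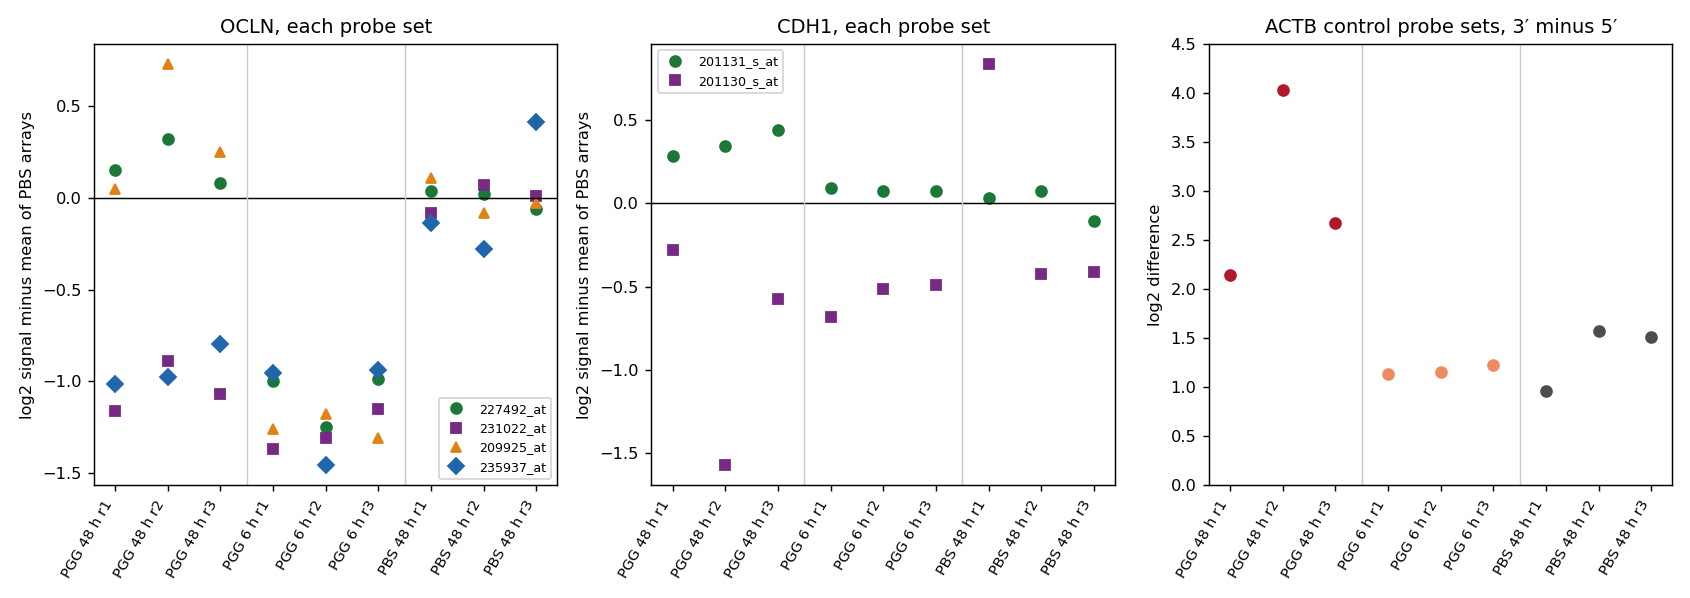
The left and middle panels give the log2 signal of each OCLN and each CDH1 probe set on the 9 arrays, minus the mean of its PBS arrays, and the right panel the ACTB 3′ minus 5′ difference of the same arrays (r1 to r3 are replicates). The ACTB difference reached 4.03 on PGG 48 h replicate 2, where the CDH1 probe set 201130_s_at read 4.53, its lowest value.

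Over the time course the genes fell into a few patterns by their highest probe sets. DSP, DSG2, TJP1 and OCLN fell at 6 h and stood higher at 48 than at 6 h, by 0.72, 0.62, 0.36 and 1.26 on the log2 scale, each at a limma adjusted p no higher than 0.0024. Of the other probe sets of these genes, OCLN 209925_at passed between the PGG times, at 1.59 (limma adjusted p = 4.4e-06). The rest did not, with 0.24 for OCLN 231022_at (limma adjusted p = 0.059), 0.19 for OCLN 235937_at (limma adjusted p = 0.49), 0.22 for DSG2 1553105_s_at (limma adjusted p = 0.54) and 0.48 for TJP1 214168_s_at (limma adjusted p = 0.065). CLDN1 and PKP2 rose at 6 h and stood lower at 48 than at 6 h. CDH2 fell at 6 h and lay lower still at 48 h, JUP rose at both, and CDH1 passed the test against PBS at 48 h alone, where its difference from PGG 6 h was 0.28 (limma adjusted p = 0.0093). At 48 h CLDN1 and DSP stood on the other side of PBS from where they had been at 6 h. Genes whose products share 1 junction did not share 1 pattern in RNA, as PKP2 went against DSP and DSG2 in the desmosome and CLDN1 against TJP1 and OCLN in the tight junction.

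Other genes of the same structures were followed by 9 lists of 122 genes, of which 112 were measured. Each gene was represented by its highest probe set, with adjustment over 19775 genes. Of the 112, 34 were higher and 27 lower in PGG 48 h than in PBS, where 23.9% of all genes were higher and 24.3% lower. At 6 h 23 were higher and 25 lower, where 17.2% and 16.9% of all genes were called. The median log2 difference over the 112 was -0.02 at 48 h and 0.03 at 6 h, against -0.02 and 0.01 over all genes.

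Of 15 measured adherens junction genes, 6 were higher and 5 lower at 48 h, and 7 were higher and 2 lower at 6 h (median log2 differences -0.13 and 0.12). VCL, which encodes vinculin, an actin linker, rose by 0.45 at 48 h and by 1.65 at 6 h. CTNNA1, which encodes alpha-catenin, rose by 0.63 at 48 h, and PLEKHA7, a protein of the apical junction belt, rose by 0.74 at 48 h and by 0.70 at 6 h. CDH17, the liver-intestine cadherin, fell by 0.71 at 48 h and fell by 0.47 at 6 h, and the nectin gene NECTIN2 fell by 0.70 at 48 h.

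Of 13 further desmosome genes, 2 were higher and 3 lower at 48 h, and 1 was higher and 5 lower at 6 h (medians 0.02 and -0.13). PPL, which encodes periplakin, a linker to filaments, rose by 0.93 at 48 h and by 1.00 at 6 h, and PKP4 fell by 0.82 at 48 h and fell by 0.31 at 6 h. PERP, a desmosomal membrane protein, rose by 0.33 at 48 h and fell by 0.35 at 6 h, the same signs as DSP. Of 6 keratins, 2 were higher and 2 lower at 48 h and 4 higher and 1 lower at 6 h. KRT19, a keratin of bile duct cells, rose by 2.03 at 48 h and by 2.22 at 6 h. Of the 4 cholangiocyte markers KRT19, KRT7, EPCAM and SOX9, KRT7 averaged 6.73 in PGG 48 h and 6.75 in PBS, SOX9 fell by 0.98 and EPCAM fell by 0.34 at 48 h, and the summed linear signal of the 4 was 1875 to 2013 in PGG 48 h, 2210 to 2426 in PGG 6 h and 2582 to 2849 in PBS. KRT8, a main keratin of hepatocytes, rose by 0.95 at 6 h, and at 48 h it read 9.70 in replicate 2 and 11.32 and 11.08 in the others. KRT18, its partner, fell by 0.29 at 48 h and rose by 0.55 at 6 h. KRT23 fell by 0.77 at 48 h and fell by 0.99 at 6 h, and KRT80 rose by 0.74 at 48 h and by 0.75 at 6 h.

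Of 22 further tight junction genes, 7 were higher and 5 lower at 48 h, and 4 were higher and 6 lower at 6 h (medians -0.01 and 0.06). PRKCZ, an atypical protein kinase C of the polarity complex, read 9.65, 9.58 and 9.76 in PGG 48 h, 7.81, 7.76 and 7.81 in PGG 6 h, and 7.5, 7.73 and 7.69 in PBS. It rose by 2.02 at 48 h (limma adjusted p = 7.1e-10). PRKCI, its relative, fell by 0.85 at 6 h. CGNL1, which encodes paracingulin, rose by 0.99 at 48 h and by 1.62 at 6 h. MARVELD2, the tricellulin gene and a relative of OCLN, fell by 0.81 at 48 h and fell by 0.68 at 6 h, whereas MARVELD3 rose by 1.03 at 48 h.

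Of 18 other claudins, 4 were higher and 3 lower at 48 h, and 2 were lower at 6 h, when the highest log2 difference was 0.17, that of CLDN18 (limma adjusted p = 0.44). CLDN12 read 10.31, 10.39 and 10.47 in PGG 48 h, 8.94, 8.98 and 9.06 in PGG 6 h, and 9.07, 9.10 and 9.10 in PBS, a rise of 1.30 at 48 h (limma adjusted p = 6.1e-09). CLDN3 rose by 1.77 and CLDN18 by 1.81 at 48 h. CLDN3 read 8.15 and 8.0 in PGG 48 h replicates 1 and 3 and 7.39 in replicate 2, against 6.00 to 6.13 in PBS. CLDN7 fell by 1.02 at 48 h and fell by 1.60 at 6 h. CLDN1 thus fell at 48 h while CLDN3, CLDN12 and CLDN18 rose. Of the 4 gap junction genes, GJA1, which encodes connexin 43, fell by 2.23 at 48 h and rose by 0.50 at 6 h, the same signs as CLDN1, and GJB2 rose by 0.56 at 48 h and by 1.85 at 6 h.

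**Figure D4:**
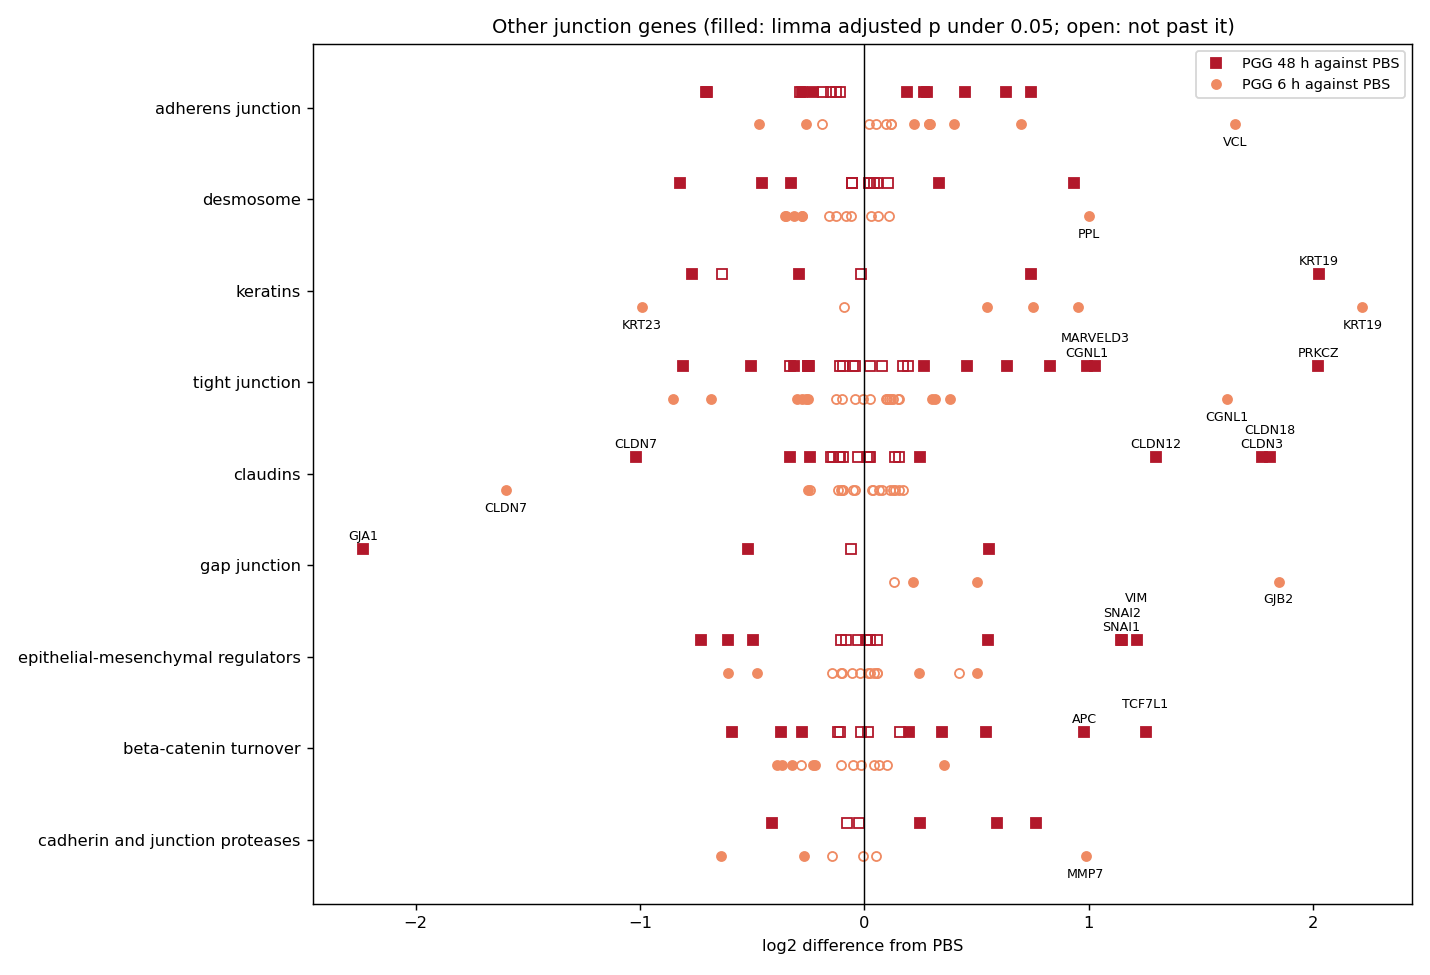
Log2 difference from PBS of 112 other genes in 9 lists, with squares for PGG 48 h and circles for PGG 6 h. Each point is 1 gene by its highest probe set, filled where the adjusted p from limma was under 0.05, and most genes with a difference near or beyond 1 are named. Points lie on both sides of 0 in nearly every list, with GJA1 lowest at -2.23 and KRT19 highest at 2.22.

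Of 15 measured regulators and markers of the epithelial-mesenchymal transition, 4 were higher and 3 lower at 48 h and 2 higher and 2 lower at 6 h (medians 0.01 and 0.02). SNAI1, a repressor of E-cadherin, read 6.77, 5.97 and 6.64 in PGG 48 h, 5.72, 5.75 and 5.75 in PGG 6 h, and 5.46, 5.24 and 5.25 in PBS. It rose by 1.14 at 48 h (limma adjusted p = 6.9e-05), and SNAI2 rose by 1.15. The SNAI2 probe set was dim, with 4.21 to 4.62 in PGG 48 h and 3.16 to 3.44 in PBS. ZEB1, another such repressor, rose by 0.55 at 48 h and fell by 0.61 at 6 h. The 3 that fell at 48 h were TCF3, by a log2 difference of -0.73, TCF4, by -0.61, and OVOL2, by -0.50 (limma adjusted p = 0.014). TCF3 and TCF4 encode E-proteins that bind E-boxes, and OVOL2 is an epithelial factor that represses ZEB1. VIM, which encodes the mesenchymal filament vimentin, rose by 1.21 at 48 h and by 0.50 at 6 h. Of 4 fibroblast markers, LUM read 6.12 to 6.31 in PGG 48 h, 2.76 to 3.18 in PGG 6 h and 2.70 to 3.09 in PBS. Of the others at 48 h, PDGFRB rose by 0.50, COL1A1, the brightest, fell by 0.28, and COL1A2 differed by -0.08 (limma adjusted p = 0.39). The summed linear signal of the 4 was 298 to 323 in PGG 48 h, 240 to 256 in PGG 6 h and 248 to 266 in PBS, and its part in the values of VIM was not tested. These genes stood beside a fall of CDH2 and no fall of CDH1 by its brighter probe set. FN1, which encodes fibronectin, had log2 differences of -0.10 at both times and did not pass.

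Of 13 genes of beta-catenin turnover and its DNA-binding partners, 5 were higher and 3 lower at 48 h and 1 higher and 5 lower at 6 h (medians 0.02 and -0.10). APC, the scaffold that marks beta-catenin for breakdown, rose by 0.98 at 48 h and by 0.35 at 6 h, and TCF7L1, a partner that mostly represses, rose by 1.25 at 48 h. PYGO2 fell by 0.59 at 48 h, and AXIN1 fell by 0.37 at 48 h and fell by 0.32 at 6 h. Of 6 proteases and regulators that shed or remove junction proteins, 3 were higher and 1 lower at 48 h and 1 higher and 2 lower at 6 h. ADAM17, a sheddase, rose by 0.59 at 48 h and fell by 0.64 at 6 h, ADAM15 fell by 0.41 at 48 h, and MMP7 rose by 0.77 at 48 h and by 0.99 at 6 h.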

How the data were processed

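Huh7 RNA was hybridised to 9 Affymetrix arrays. The authors summarised them by RMA with Affymetrix Expression Console, and the deposited table holds log2 values. No source used here gives its version. RMA sets the arrays to 1 distribution, so changes are relative to the bulk of probe sets. Groups came from the sample titles.

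Of 54675 probe sets, 62 controls were left out and 54613 tested with limma 3.58.1 in R 4.3.3 (lmFit with 1 mean per group over 9 arrays, eBayes, Benjamini-Hochberg over all probe sets). Symbols came from the platform annotation, with 41091 probe sets paired with 1 symbol. Of the list genes, 10 of 122 were not analysed here. Members and lists were chosen with earlier results of these data known. Named genes are the 10 members, and from each list up to 3 rises and 3 falls per comparison with PBS. Genes and values named outside this rule were chosen after their values were seen.

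The alternatives were other samples in the fit, a replicate block, other scalings, a filter on dim probe sets, other variance models, array weights, the methods' test and threshold, single arrays left out and, chosen after seeing the data, both arrays at the ends of the ACTB measure left out. The steps were tested on simulated data. The number of arrays limits the precision, and p-values measure the spread between these arrays.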

Additional observations from a re-analysis of the deposited data

Results flagged for a closer look

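By the highest probe sets, 9 of the 10 genes passed the direct comparison of PGG at 48 hours with PGG at 6 hours in limma. PBS was given for 48 hours only, so culture time and length of PGG exposure cannot be told apart in that comparison. Of all 54613 probe sets, 18% were higher and 18.4% lower in that comparison. The share over all genes by their highest probe sets was not computed for it. The log2 value at 48 hours minus that at 6 hours was -1.74 for CLDN1, -1.45 for PKP2, -0.81 for CDH2 and -0.33 for CTNNB1. It was 1.26 for OCLN, 0.72 for DSP, 0.62 for DSG2, 0.36 for TJP1 and 0.28 for CDH1. The adjusted p ranged from 5.7e-09 for CLDN1 to 0.049 for CTNNB1. The call of CTNNB1 was lost with the replicate block (limma adjusted p = 0.079), with arrays centred on their medians (limma adjusted p = 0.065), with the methods' t-test and without any 1 of 7 single arrays (limma adjusted p = 0.056 to 0.18). That of CDH1 was lost with the mean of its probe sets, at 0.02 (limma adjusted p = 0.96). For JUP the difference was 0.32 (adjusted p = 0.11 from limma).

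The control probe sets of ACTB, which entered no comparison, had a 3′ minus 5′ difference of 2.14, 4.03 and 2.67 in PGG 48 h replicates 1, 2 and 3, each above the highest PBS array at 1.57.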

How the results depend on the processing

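The counts of called junction probe sets stayed within 1.5 times under every alternative but the following. At the threshold of the methods (an adjusted p below 0.005 with a log2 change over 1.5), limma called 1 higher and 0 lower at 48 hours against PBS, 1 and 0 at 6 hours against PBS, and 1 and 2 between the PGG times, with 2246, 402 and 1654 of all probe sets. With the methods' t-test, 5 rather than 8 were lower at 48 hours against PBS and 5 rather than 8 between the PGG times. At the methods' own threshold that test called 0 at 48 hours, 1 at 6 hours (PKP2) and 2 between the PGG times (both CLDN1). With the mean of all probe sets of a gene, CDH1 stood at -0.23 and OCLN at -0.36 at 48 hours against PBS, opposite in sign to their highest probe sets. The probe sets of these genes differ from each other at 48 hours, as the report gives. Of 570 values of single genes under alternatives, 546 kept their direction and their side of the threshold, or stayed short of it, 17 lost the call, 5 gained it and 2 reversed. The losses and gains were those of TJP1 at 48 hours, of CTNNB1, of JUP between the PGG times and of CDH1 between the PGG times with the mean of its probe sets, at 0.02. With both extreme arrays of the RNA measure left out, 3 were higher and 8 lower at 48 hours, 6 and 11 at 6 hours, and 9 and 9 between the PGG times. Of all probe sets, 20889, 14350 and 21110 were then called, against 21323, 13445 and 19887 with all arrays. The labels do not say that a replicate number marks a shared batch, and same-numbered arrays had correlations of deviations of -0.09 to 0.16, against -0.18 to 0.11 for others. With the replicate block, 7 were higher and 7 lower between the PGG times, where 19842 of all probe sets were called. The other counts of junction probe sets did not change with the block.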
